A study of Mus musculus with 11 samples.

Results

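Fibroblasts were picked out of a single-cell RNA sequencing experiment on the brain vessels of CADASIL mice. A barcode was taken as a fibroblast when it held at least 500 genes, at most 10% mitochondrial unique molecular identifiers (UMIs, 1 per captured transcript), at least 5 UMIs summed over Dcn, Col1a1, Col1a2 and Lum with at least 2 of these 4 genes detected, no Myh11 UMI, at most 3 UMIs of Cldn5 and Flt1 together, and at most 1 UMI of P2ry12 and Cx3cr1 together. Of 61625 barcodes that passed the limits on genes and mitochondrial UMIs, 95 (0.154%) met the rule. The cells were thus chosen by the UMI counts of these genes, whose levels below are a description.

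The cells came from 6 R182C-TgN3 mice, which carry human NOTCH3 with the R182C variant, and from 5 WT-TgN3 controls, which carry the unmutated human gene. Both groups were untreated, of both sexes and 6 or 9 months old, and UMIs of the mouse gene Notch3 were found in both. The vessel fragments were captured with CD31 antibodies and digested to single cells, so fibroblasts were carried along with the endothelium and their share is not their share of the tissue. Each mouse gave 1 droplet library, with 17550806 to 64215050 UMIs. The mice were handled in 4 batches nested in age, and batch 2 held 1 R182C-TgN3 mouse alone. Sex-linked genes matched the labelled sex in 11 of 11 libraries, and human NOTCH3 was counted in smooth muscle barcodes of 11 of 11 libraries. The counts cannot tell the R182C from the unmutated transcript.

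Some libraries shared barcode sequences. Of 65086 distinct sequences, 966 occurred in 2 or more libraries, with 62 to 350 shared sequences for a pair of 6-month libraries and 6 to 38 for a pair of 9-month libraries. Of the 95 fibroblasts, 3 had the same barcode sequence, in R182C-TgN3 4, R182C-TgN3 5 and WT-TgN3 3, with 874, 1035 and 772 UMIs. Shares, UMIs per fibroblast and counts of called genes were also computed without these barcodes.

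Fibroblasts of the brain lie in the meninges and along the larger vessels, between the smooth muscle layer and the astrocyte endfeet. They secrete fibrillar collagens, small leucine-rich proteoglycans and basement membrane proteins. In CADASIL, variants of NOTCH3, a receptor of mural cells, lead to deposits in the vessel wall that hold the receptor's ectodomain together with matrix proteins such as TIMP3 and HTRA1.

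The 4 genes of the rule encode matrix proteins. Dcn (decorin, chromosome 10, 97479609 to 97518143 on mm10, plus strand) and Lum (lumican, chromosome 10, 97565128 to 97572703, plus strand) are neighbouring genes of small proteoglycans that bind collagen fibrils. Col1a1 (chromosome 11, 94936224 to 94953042, plus strand) and Col1a2 (chromosome 6, 4504814 to 4541544, plus strand) encode the chains of type I collagen. The RefSeq promoter table (GRCm38.p6) held 20 of the 29 genes made up of these 4 and the 25 leading genes named below, and among the 4 it held Col1a2. Its 250 bases before the RefSeq start, chr6:4505368-4505617 on the plus strand, are shown because type I collagen is the defining product of the cells. This window lies inside the GENCODE gene model, which begins further upstream.
Col1a2 promoter: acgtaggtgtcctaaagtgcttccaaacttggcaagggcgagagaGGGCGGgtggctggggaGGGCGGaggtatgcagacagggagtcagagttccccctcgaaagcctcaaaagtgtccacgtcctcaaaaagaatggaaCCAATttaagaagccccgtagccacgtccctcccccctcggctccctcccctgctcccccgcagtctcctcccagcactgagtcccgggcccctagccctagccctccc
Capitals mark the CCAAT box, found 1 time, and the GC box GGGCGG, found 2 times, searched on both strands. The letters TATAAA are not in this window. Of 32851 windows of this length, 33.8% held CCAAT, 32.7% GGGCGG and 12.4% TATAAA. Among the 20 genes found, 5 held CCAAT, 13 GGGCGG and 4 TATAAA. A match is a description of the letters only.

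The fibroblasts were deep barcodes. Their median was 10072 UMIs and 3687 genes, the lowest held 772 and the highest 39951 UMIs, and together they held 1058206 UMIs. The summed UMIs of the 4 genes ran from 5 to 362 with a median of 52. Most barcodes were far from the threshold, since 88 of 95 held 10 or more and 82 of 95 held all 4 genes. Just inside it, 7 barcodes held 5 to 9 UMIs, and just outside it, 16 barcodes held 3 or 4. Before the limits on other cell types, 170 barcodes met the 4-gene criterion. Of these, 35 held Myh11, 52 exceeded the limit on Cldn5 and Flt1 and 20 the limit on P2ry12 and Cx3cr1, with some failing more than 1. Simulated-doublet scoring marked 19 of the 95 fibroblasts and 3040 of all 61625 kept barcodes (4.93%).

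Fibroblasts were found in every mouse, but in small numbers. R182C-TgN3 mice 1 to 6 gave 6, 9, 2, 8, 15 and 8 fibroblasts, and WT-TgN3 mice 1 to 5 gave 10, 4, 7, 17 and 9. As shares of kept barcodes, the R182C-TgN3 mice held 0.0607%, 0.217%, 0.0298%, 0.166%, 0.504% and 0.140%. The WT-TgN3 mice held 0.228%, 0.0688%, 0.111%, 0.427% and 0.130%. R182C-TgN3 5 and WT-TgN3 4 were the highest of their groups, and the groups overlapped over nearly their whole range. For single mice the exact (Clopper-Pearson) 95% interval was wide, from 0.282% to 0.829% in R182C-TgN3 5 and from 0.004% to 0.108% in R182C-TgN3 3, and it covers counting error only.

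**Figure D1:**
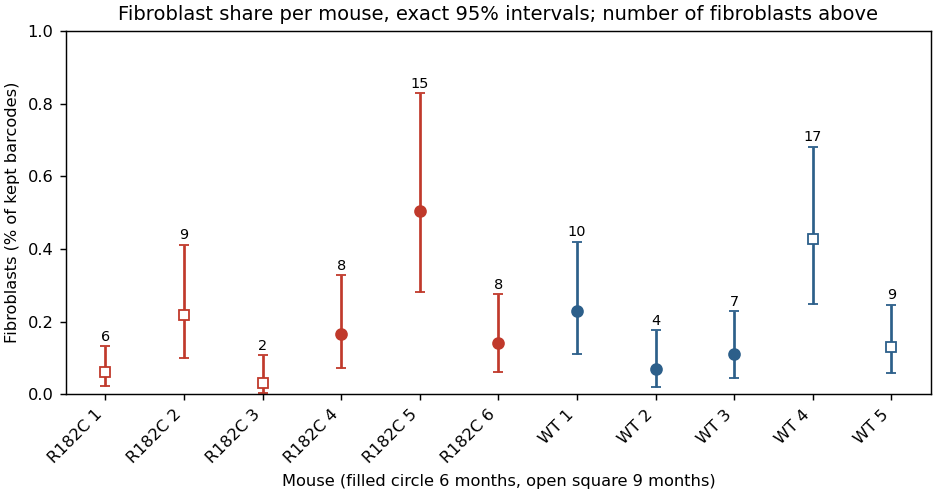
Fibroblasts as a percentage of kept barcodes (y axis) in each of the 11 mice (x axis), R182C-TgN3 in red and WT-TgN3 in blue, with filled circles for 6 and open squares for 9 months and bars for the exact 95% binomial interval. The shares lie between 0.0298% and 0.504% and the genotypes overlap.

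The share did not differ between genotypes beyond the spread between mice. The R182C-TgN3 mice averaged 0.186% ± 0.170 (SD, n = 6) and the controls 0.193% ± 0.143 (SD, n = 5), which is -0.00674 percentage points (2-sided exact permutation test over 462 splits, p = 0.933). The direction differed between batches, with 2 mice of each genotype in batches 1 and 3 and 1 of each in batch 4. Batch 2 held no control and is not part of the values within batches. A dependence on batch was not tested. R182C-TgN3 minus WT-TgN3 was -0.140 percentage points in batch 1, 0.186 in batch 3 and 0.0291 in batch 4. Permuting within batches gave 0.0246 percentage points (exact p = 0.778), and leaving out the shared barcodes gave -0.0126 (exact p = 0.874). The difference turned to 0.0184 without R182C-TgN3 1, 0.0246 without R182C-TgN3 3, 0.00248 without R182C-TgN3 6, 0.00209 without WT-TgN3 1 and 0.0517 percentage points without WT-TgN3 4.

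The share at 9 months was 0.173% ± 0.159 (SD, n = 5) and at 6 months 0.203% ± 0.157 (SD, n = 6), a difference of -0.0301 percentage points (2-sided exact permutation test, p = 0.716), and -0.0184 without the shared barcodes (exact p = 0.801). Without R182C-TgN3 5 it turned to 0.0300 and without R182C-TgN3 3 to 0.00564 percentage points. Age and batch cannot be told apart. By genotype and age, the 6-month share averaged 0.270% ± 0.203 (SD, n = 3) for R182C-TgN3 and 0.136% ± 0.0826 (SD, n = 3) for WT-TgN3. At 9 months the averages were 0.103% ± 0.100 (SD, n = 3) and 0.278% ± 0.210 (SD, n = 2). The SDs were large beside these means.

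The median UMIs per fibroblast ranged from 3018.5 to 11940 in the 6 R182C-TgN3 and from 4930 to 16958 in the 5 WT-TgN3 mice. The mean of these medians was 8602 ± 3699 (SD, n = 6) against 10687 ± 5410 (SD, n = 5), a difference of -2085 UMIs (2-sided exact permutation test, p = 0.465), or -2018 without the shared barcodes (exact p = 0.459). Only 3 mice held 10 or more fibroblasts, R182C-TgN3 5, WT-TgN3 1 and WT-TgN3 4, with medians of 10718, 6641 and 16958 UMIs. With 1 mouse against 2 the smallest p an exact test allows is 0.333, so that test could not pass the threshold.

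The markers fixed for fibroblasts in general were present. All 16 genes of that list, which leaves out the 4 rule genes, had UMIs. Their detection was uneven, from 93.7% of the fibroblasts for Serping1 down to 9.47% for Fn1. Lsp1, Fbln1 and Col6a3 were found in 14.7%, 17.9% and 18.9%. Pdgfra, the receptor that marks fibroblasts against mural cells, was detected in 86.3% of the fibroblasts, against 0.560% of endothelial barcodes. After thinning to 2000 UMIs per barcode, Pdgfra was found in 49.4% of 87 fibroblasts (95% interval 38.5% to 60.4%) and in 0.176% of endothelial barcodes. Gsn, Igfbp4 and Serping1 had the highest levels of the list. All 10 genes of the perivascular list had UMIs too, led by Lama2, a laminin chain of basement membranes, with 1729 ± 596 CPM (UMIs of the gene scaled to 1000000 UMIs per mouse, SD, n = 9 mice with at least 5 fibroblasts). The list summed to 4438 CPM in pooled fibroblasts and averaged 3870 CPM in pericyte and 2385 CPM in endothelial barcodes.

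The lists for meningeal layers were less complete. Of the 16 genes of the leptomeningeal list, 14 had UMIs, and most of its level came from Moxd1, a monooxygenase gene, at 1173 ± 574 CPM (SD, n = 9). Lama1 was found in 51.6% of the fibroblasts, Igfbp2 in 50.5%, Slc7a11 in 37.9% and Foxc2 and Tbx18 each in 35.8%. The other detected members ranged from 17.9% for Slc22a8 down to 2.11% for Slc13a3 and Slc22a6. Among them, Slc6a13, a GABA and taurine transporter of meningeal cells, was found in 11.6%, and Aldh1a2, which makes retinoic acid, in 7.37%. Crabp2 and Slc26a7 had no UMI in 95 barcodes, which allows up to 3.16% of barcodes with a UMI. Of the 10 dural genes, Thbs4 and Comp had none, while Mgp, an inhibitor of calcification, was at 8265 ± 3497 CPM (SD, n = 9), far above Dcn at 4209 ± 1777 CPM. The cells are therefore called fibroblasts here, by their rule and genes, with no layer assigned.

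Several defining markers of other cells were at 0. Myh11 and Cnn1 of smooth muscle had no UMI, the first by the rule, nor had Cd3e, Nkg7, Cd79a and Ms4a1 of lymphocytes, Snap25 and Rbfox3 of neurons, Aqp4 and Gfap of astrocytes, or Mbp, Mog and Mag of oligodendrocytes. The endothelial list summed to 153 CPM in pooled fibroblasts, against 13941 CPM as the mean of endothelial barcodes, and the microglia list to 411 CPM against 414 CPM in endothelial barcodes. The gates fixed these sums in part. Cldn5 and Flt1 of the endothelial list were limited in fibroblasts and required in endothelial barcodes. P2ry12 and Cx3cr1 of the microglia list were limited in both. Some lists were above their endothelial level. The smooth muscle list, with 4 of 6 genes detected, summed to 180 against 27.4 CPM. The ependymal list summed to 371 against 3.00 CPM, all from Rarres2, 1 of its 5 genes, and averaged 530 CPM in pericyte barcodes. The neuron list summed to 91.7 against 9.84 CPM through 2 of 4 genes, Meg3 with 95 UMIs and Syt1 with 2. The oligodendrocyte list, through 2 of 5 genes, summed to 88.8 against 5.90 CPM, and Cldn11 of that list was found in 41.1% of fibroblasts. The arachnoid barrier list, which also holds Cldn11, summed to 87.9 against 43.7 CPM, with 4 of 6 genes detected. The Schwann list summed to 88.8 against 51.9 CPM and the perivascular macrophage list to 17.0 against 6.48 CPM. The pericyte list, with 6 of 6 genes detected, summed to 492 against 96.8 CPM. It ranged from 150 to 1541 CPM over the 9 mice. Its highest genes were Abcc9, Vtn and Rgs5, and Abcc9, a potassium channel subunit, was found in 56.8% of fibroblasts. Ttr, a choroid plexus transcript, was found in 47.4% of fibroblasts and in 41.5% of endothelial barcodes, and after thinning in 17.2% and 20.6%. Whether these Ttr UMIs are background RNA was not tested.

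The profile set the fibroblasts apart from the other classes of barcodes. Of 3846 genes at 50 CPM or more in fibroblasts, 138 were at least 10 times as high as in endothelial, smooth muscle, pericyte and microglia barcodes. The following levels are means over the 3 mice with at least 10 fibroblasts, with no test, since the rule chose the cells. Dcn was at 3325 ± 563 CPM (SD, n = 3) and Lum at 1512 ± 208. Each was under 1 CPM in every other class, which the gates of those classes fixed. Smooth muscle and pericyte barcodes were allowed no Dcn or Lum UMI, and endothelial and microglia barcodes almost no UMI of any rule gene. Col1a2 was at 667 ± 24.4 CPM and Col1a1 at 489 ± 50.6. Type I collagen, which the gates of smooth muscle and pericyte barcodes did not limit, was not evenly restricted. Col1a2 was also at 103 CPM in smooth muscle and 96.6 CPM in pericyte barcodes, whereas Col1a1 stayed at 2.99 CPM or less in both.

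The 25 leading genes by ratio to the other classes fell into secreted matrix proteins, enzymes, signalling genes and genes better known from neurons. Among matrix and secreted proteins were Cemip, which degrades hyaluronan, at 1861 ± 127 CPM (SD, n = 3), Coch (cochlin) at 1234 ± 153, Efemp1, a fibulin, at 540 ± 119, and Mfap4, a microfibril protein, at 248 ± 107. Adam12, a metalloprotease of mesenchymal cells, was at 1809 ± 87.7 CPM. F3, tissue factor, which starts coagulation, was at 885 ± 236 CPM. Inmt, a methyltransferase, was at 767 ± 239 CPM and Dpep1, a dipeptidase, at 515 ± 115 CPM. Itih2, Frem1 and Rbp4, which carries retinol in plasma, were lower, at 81.4, 136 and 69.3 CPM.

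Signalling genes in the 25 were Pdgfra at 479 ± 89.5 CPM, Hhip, a hedgehog antagonist, at 103 ± 81.6, and Wnt2 at 56.3 ± 14.0. Prrx2, a homeobox gene of mesenchyme, was at 137 ± 12.4 CPM. Erc2, a presynaptic scaffold gene, reached 952 ± 62.9 CPM and Hpca, a neuronal calcium sensor, 228 ± 19.8 CPM, although the neuronal markers Snap25 and Rbfox3 were at 0. Sct (secretin), Scn7a, Prr16, Cdh19 and Cnksr2 were between 56.6 and 142 CPM. The uncharacterised transcripts 9130410C08Rik and Gm39033 were at 59.9 and 62.3 CPM.

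**Figure D2:**
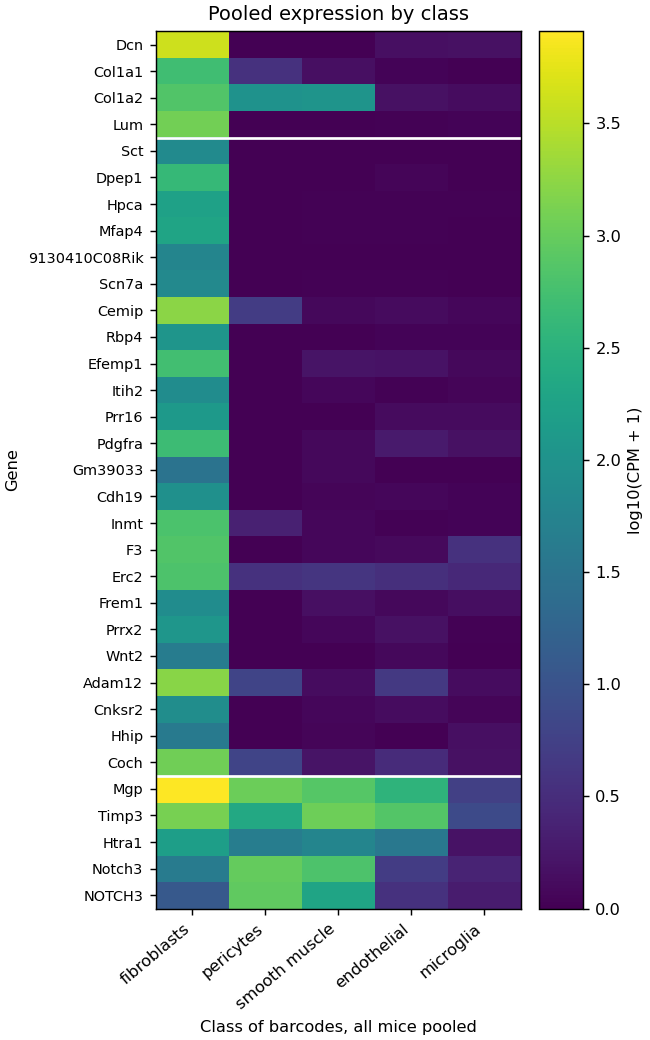
Pooled expression as log10(CPM + 1) (colour) of the 4 rule genes, 24 leading genes and 5 genes of interest (rows) in the 5 classes of barcodes (columns). The first 2 blocks are bright only in fibroblasts, apart from Col1a2, while Notch3 and human NOTCH3 are brightest in pericytes and smooth muscle. Dcn and Lum were kept low in the other classes by their gates.

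The matrix lists gave the fibroblasts' output in depth. Fibrillar and associated collagens summed to 2563 CPM in pooled fibroblasts, against 56.0 CPM in endothelial and 441 CPM in pericyte barcodes, with all 15 members detected. About as much came from Col1a1 and Col1a2, which chose the cells, as from the other 13 collagens, which summed to 1337 CPM against 55.5 CPM in endothelial, 180 CPM in smooth muscle and 341 CPM in pericyte barcodes. Col3a1, a partner of type I collagen, was at 338 ± 192 CPM (SD, n = 9). Small leucine-rich proteoglycans summed to 7156 CPM, led after Dcn and Lum by Bgn (biglycan) at 771 ± 159 and Ogn (osteoglycin) at 656 ± 171 CPM. Without Dcn and Lum, the 9 others summed to 1866 CPM, against 1499 CPM in pericyte and 1131 CPM in smooth muscle barcodes. Basement membrane genes summed to 5564 CPM, close to the 5589 CPM of pericyte barcodes. These sums rest on UMIs, which count transcripts and not their length.

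Genes whose proteins are known from CADASIL vessel deposits summed to 12964 CPM in fibroblasts and 12990 CPM in pericytes, against 2535 CPM in endothelial and 2724 CPM in smooth muscle barcodes. Without the rule genes Dcn, Lum and Col1a1 the fibroblast sum was 7157 CPM, against 12987, 2535 and 2724 CPM, and so below that of pericytes. The pericyte sum came mostly from Vtn (vitronectin), at 11393 CPM there. In fibroblasts it was spread over Dcn, Apoe at 4065 ± 1152 CPM (SD, n = 9), Timp3 at 1321 ± 355 CPM and Lum. Timp3, an inhibitor of metalloproteases, was also at 1103 CPM in smooth muscle barcodes. Htra1, a secreted protease whose loss causes a recessive small vessel disease, was at 158 ± 61.7 CPM in fibroblasts and 61.7 CPM in smooth muscle barcodes.

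The NOTCH3 receptor itself was low in fibroblasts. Pooled over mice they held 43 UMIs of mouse Notch3 and 12 of human NOTCH3. By mouse, Notch3 gave 0, 17, 0, 0, 2 and 9 UMIs in R182C-TgN3 1 to 6 and 1, 0, 1, 3 and 10 in WT-TgN3 1 to 5. R182C-TgN3 2 and WT-TgN3 5, which held the most, also had the highest pericyte lists, at 1541 and 1067 CPM, and the part of pericyte RNA in the Notch3 counts was not tested. Human NOTCH3 gave 0, 2, 0, 0, 1 and 6 UMIs in R182C-TgN3 1 to 6 and 1, 0, 0, 2 and 0 in WT-TgN3 1 to 5. R182C-TgN3 6 held 6 of these 12. Pericyte barcodes averaged 971 CPM of Notch3 and 765 CPM of NOTCH3, against 48.1 ± 61.5 and 12.2 ± 20.4 CPM (SD, n = 9) in fibroblasts. After thinning, Notch3 was found in 5.75% of fibroblasts (95% interval 1.89% to 12.9%) and in 0.651% of endothelial barcodes. Neither gene was high enough for the test between genotypes.

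Other signalling genes were in part shared with the neighbouring classes. Vcam1, an adhesion molecule, was at 765 ± 220 CPM (SD, n = 9) and the chemokine Cxcl12 at 705 ± 158 CPM. Endothelial barcodes held more Cxcl12, at 1507 CPM. Tgfbi, a TGF-beta induced matrix protein, was at 1038 ± 220 CPM and at 20.2 CPM or less in the other classes. Igfbp7 at 4185 ± 1382 and Igfbp4 at 1162 ± 243 CPM led the insulin-like growth factor axis. Igfbp7 was found in 93.1% of fibroblasts and in 83.6% of endothelial barcodes after thinning. Among transcription factors Nr2f2 at 886 ± 214, Zic1 at 383 ± 92.9 and Foxd1 at 371 ± 48.7 CPM were also found in pericyte barcodes, at 559, 387 and 237 CPM. Acta2, a gene of contractile cells, was found in 4.21% of fibroblasts and in 4.60% of endothelial barcodes.

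Clustering of the 95 barcodes alone gave 4 clusters, described here by their leading genes and with no test, since the same genes formed them. Cluster 1 held 52 barcodes from 10 mice and cluster 2 held 30 from 10 mice, so that 82 of 95 (86.3%) lay in these. Immediate-early and stress genes led cluster 1. Junb was at 1904 CPM there and 628 CPM in the other fibroblasts, Fosb at 1655 and 634, Atf3 at 210 and 52.3, and the chemokine Cxcl1 at 253 and 26.2. WT-TgN3 4 gave 15 of its 52 barcodes. Cluster 2 was shallower, with a median of 7310 against 12810 UMIs, and was led by Ifi27l2a at 791 against 258 CPM, an interferon-induced gene. Emcn, at 747 against 414 CPM, and Eng, at 421 against 234 CPM, both best known from endothelium, were also among its leading genes. The endothelial list, which holds neither, was not highest in cluster 2. It summed to 135 CPM there, against 162, 198 and 56.5 CPM in clusters 1, 3 and 4. Dpep1 was at 634 CPM in it and Ccn2, a matricellular gene, at 256 CPM. Mgp was high in both, at 8405 and 10109 CPM, and Slc6a13 was near 0, at 8.4 and 4.34 CPM.

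The other two clusters were small and had other matrix genes. Cluster 3 held 8 barcodes from 6 mice, 5 of them R182C-TgN3 and 3 WT-TgN3. Slc6a13 was at 942 CPM in it and 7.02 CPM in the other fibroblasts and was found in 8 of 8 barcodes. Aldh1a2 was at 430 against 1.00 CPM, Pi16, a fibroblast gene, at 694 against 3.01 and Dcdc2a at 942 against 6.01 CPM. Col1a1 reached 1437 CPM, Col3a1 1388 CPM and Igf2, a growth factor, 1916 CPM, while Mgp was at 314 CPM and Dpep1 had no UMI. The leptomeningeal list summed to 5551 CPM in cluster 3, against 1991, 2307 and 376 CPM in clusters 1, 2 and 4. The perivascular list was also higher in it, at 11085 CPM against 3910, 4005 and 5834 CPM, and so was the pericyte list, at 1107 CPM against 542, 269 and 94.1 CPM and with UMIs in 8 of 8 barcodes. The dural list was lowest in it, at 1586 CPM against 8641, 10291 and 5213 CPM. That sum mostly followed Mgp, which made up 8139 of the list's 8425 CPM in pooled fibroblasts. Other members differed: Pi16 and Clec3b, at 396 against 2.00 CPM, were higher in cluster 3, and Fxyd5 was a leading gene of cluster 1. Of the 8 barcodes of cluster 3, 3 were scored as doublets. Among its 10 leading genes, Slc6a13 and Aldh1a2 are on the leptomeningeal and Pi16 and Clec3b on the dural list, so no layer was assigned.

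Cluster 4 held 5 barcodes from 3 mice, 3 of them from WT-TgN3 5, and 5 of 5 were scored as doublets. Dcn was at 15263 CPM and Gsn at 12948 CPM in it. Crispld2, a secreted protein gene, was at 2635 CPM against 72.6 CPM in the other fibroblasts, Spon1 (spondin 1) at 621 against 12.9, the growth factor Igf1 at 866 against 27.9 and Ccl11, a chemokine, at 358 against 10.9 CPM. Endothelial, smooth muscle and pericyte lists summed to 56.5, 75.3 and 94.1 CPM in cluster 4. By age, clusters 1 to 4 held 24, 22, 6 and 0 barcodes of 6-month and 28, 8, 2 and 5 of 9-month mice.

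**Figure D3:**
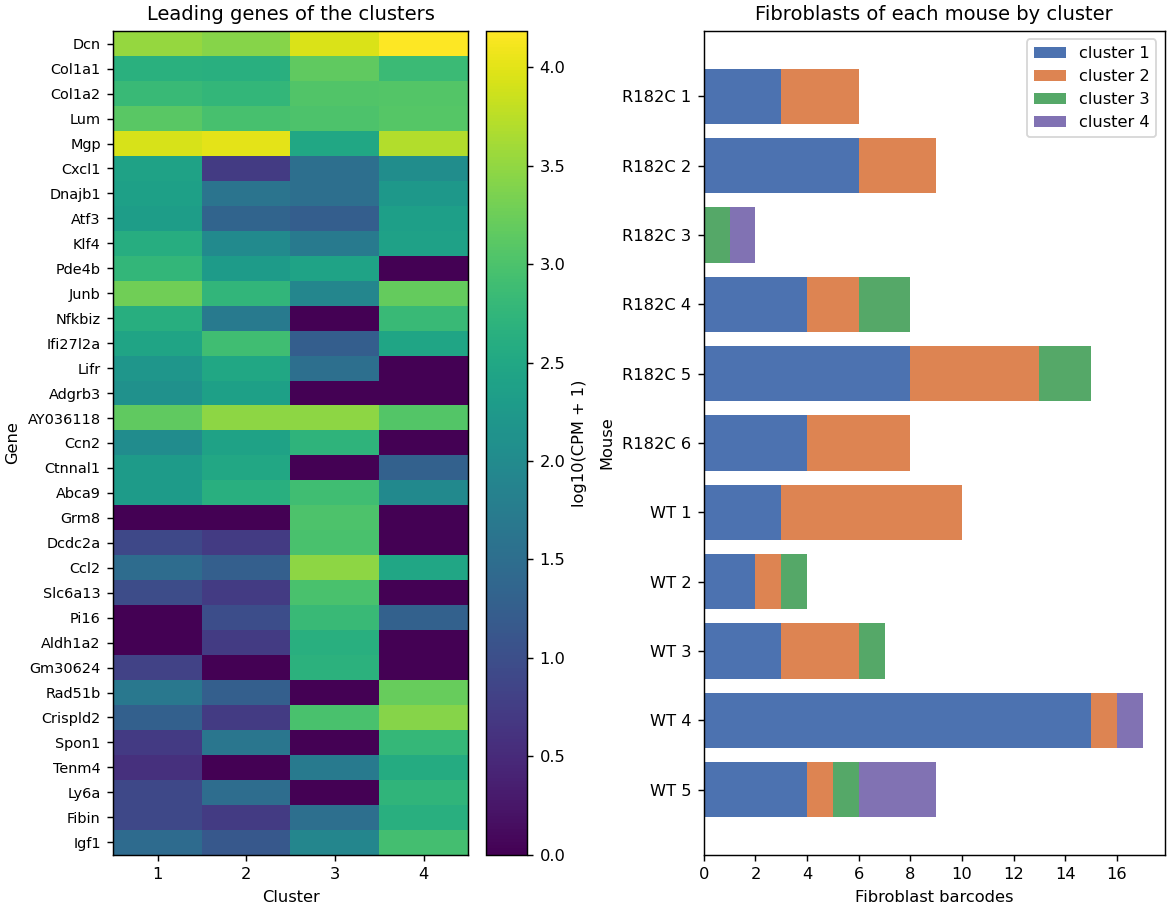
Left, expression as log10(CPM + 1) (colour) of the rule genes, Mgp and the 7 leading genes of each cluster (rows) in the 4 clusters (columns). Right, number of fibroblast barcodes (x axis) of each mouse (y axis) by cluster. Clusters 1 and 2 hold 82 of 95 barcodes, and cluster 3, with Slc6a13, is spread over 6 mice.

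Genes were compared between genotypes in UMIs summed per mouse. With the minimum of 10 fibroblasts, 1 R182C-TgN3 mouse (number 5) stood against 2 WT-TgN3 mice (numbers 1 and 4), so a gene's difference is that of 1 mouse, and the p-values hold no spread among R182C-TgN3 mice. Of 3645 genes, 3 (0.0823%) passed an adjusted p under 0.05 by edgeR's quasi-likelihood test, 2 higher and 1 lower in the R182C-TgN3 mouse, and 150 (4.12%) an unadjusted p under 0.05. Igf2, the growth factor that was high in cluster 3, was at 403 CPM in it and at 13.7 and 44.8 CPM in the controls. Its log2 fold change was 3.39 (SE 0.52, edgeR adjusted p = 3.18e-07). Of its 59 Igf2 UMIs, 48 came from the 2 barcodes of cluster 3 in this mouse, a cluster that neither control had. Of the cluster 3 barcodes of other mice, the 2 of R182C-TgN3 4 held 52 Igf2 UMIs and that of R182C-TgN3 3 held 3. That of WT-TgN3 3 held 12, that of WT-TgN3 2 held 1 and that of WT-TgN3 5 held 0.

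Trpm3, a calcium channel gene, was at 205 CPM against 13.7 and 20.9 CPM (log2 fold change 3.34, SE 0.67, edgeR adjusted p = 0.00102). Of its 30 UMIs, 29 came from the same 2 barcodes. WT-TgN3 3, which had too few fibroblasts for this fit, held 50 Trpm3 UMIs, all in cluster 1. Gadd45g, a stress-induced gene, was at 20.5 CPM against 54.6 and 248 CPM (log2 fold change -3.12, SE 0.73, edgeR adjusted p = 0.0207). DESeq2 called none of the 3645 genes, with 14 at an unadjusted p under 0.05. Ptgds, a prostaglandin synthase of the meninges, had 23 UMIs in the R182C-TgN3 mouse, all in cluster 3, and 0 in the controls (edgeR adjusted p = 0.0699). With the shared barcodes left out, 3 genes were again called. With the 13 barcodes of clusters 3 and 4 left out, 0 of 3368 genes were called by edgeR, with 122 at an unadjusted p under 0.05. Igf2 then had a log2 fold change of 1.18 (edgeR adjusted p = 0.999) and Gadd45g -2.66 (SE 0.75, edgeR adjusted p = 0.359), and Trpm3 and Ptgds were below the filter.

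In the 9 mice with at least 5 fibroblasts, 5 R182C-TgN3 and 4 WT-TgN3, no gene was called. Of 1736 genes, 0 (0.0%) passed an adjusted p under 0.05 by edgeR and 0 by DESeq2, with 39 and 24 at an unadjusted p under 0.05 (2.25% by edgeR). The median log2 fold change over all genes was 0.00. Igf2 was at 0.0, 141, 1488, 403 and 42.0 CPM in R182C-TgN3 1, 2, 4, 5 and 6 and at 13.7, 610, 44.8 and 0.0 CPM in WT-TgN3 1, 3, 4 and 5. The groups overlapped, and its log2 fold change was 1.65 (SE 1.16, edgeR adjusted p = 0.999). Of its 53 UMIs in R182C-TgN3 4, 52 were again in cluster 3. Trpm3 and Gadd45g were below the filter there. In data simulated on the same mice, edgeR recovered 39.4% of 94 genes changed 2-fold and 95 of 95 changed 4-fold, with 5 false calls. Every simulated gene had the same dispersion, 0.0872. These rates therefore do not cover genes that vary more between mice.

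The genes with the smallest p are given as values only. Gsn (gelsolin), which severs actin filaments, was at 449, 775, 449, 1052 and 473 CPM in the R182C-TgN3 and at 1639, 850, 1369 and 3581 CPM in the WT-TgN3 mice. It was lower in R182C-TgN3 but WT-TgN3 3 lay below R182C-TgN3 5 (log2 fold change -1.47, SE 0.39, edgeR adjusted p = 0.999). With all 11 mice, that is with R182C-TgN3 3 and WT-TgN3 2 added, the value turned to 1.13. R182C-TgN3 3, with 2 fibroblasts, was at 19996 CPM and WT-TgN3 2 at 574 CPM. All 202 Gsn UMIs of R182C-TgN3 3 were in its 1 barcode of cluster 4. The 3 barcodes of that cluster in WT-TgN3 5 held 271 of its 329 UMIs, and the 1 in WT-TgN3 4 held 215 of its 458. With clusters 3 and 4 left out, the log2 fold change of Gsn in the 9 mice was -0.58 (SE 0.33, unadjusted p = 0.0978 by edgeR, not called).

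Adamts9, a secreted metalloprotease, was at 44.9, 30.2, 56.1, 81.9 and 105 CPM in the R182C-TgN3 and at 150, 174, 155 and 163 CPM in the WT-TgN3 mice. The groups did not overlap in these 9 mice, as for 18 (1.04%) of the 1736 genes, while R182C-TgN3 3 and WT-TgN3 2, with fewer fibroblasts, both had no Adamts9 UMI. Its log2 fold change was -1.19 (SE 0.35, edgeR adjusted p = 0.999). Klhl29 did not overlap either, with a log2 fold change of -1.21 (SE 0.34). Alcam, an adhesion molecule, had -2.07 (SE 0.60), with 1851 CPM in WT-TgN3 3 and 0.0 to 451 CPM in the other 8 mice. Ly6e had -1.10 (SE 0.37).

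In the other direction, Mt1 (metallothionein 1), which binds zinc and copper, was at 643, 342, 281, 246 and 757 CPM in the R182C-TgN3 and at 123, 196, 332 and 163 CPM in the WT-TgN3 mice. WT-TgN3 4 lay within the R182C-TgN3 range (log2 fold change 1.13, SE 0.39, edgeR adjusted p = 0.999). Ralgapa1, a regulator of Ral GTPases, had 1.21 (SE 0.39) and did not overlap. Pabpn1, which binds poly(A) tails in the nucleus, had 0.80 (SE 0.28), Tm4sf1 1.04 (SE 0.37) and Smc1a, a cohesin subunit, 0.84 (SE 0.30). None of these passed the adjusted threshold.

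For the 4 rule genes, whose counts chose the cells, the values are a description. Dcn averaged 3503 ± 1494 CPM (SD, n = 5) with R182C-TgN3 and 5092 ± 1892 CPM (SD, n = 4) with WT-TgN3, and its log2 fold change was -0.48 (SE 0.36). Lum had -0.20 (SE 0.29), Col1a1 -0.15 (SE 0.32) and Col1a2 -0.06 (SE 0.26). Of genes the rule did not use, Timp3 was at 1213 ± 204 against 1456 ± 486 CPM (log2 fold change -0.23, SE 0.27) and Htra1 at 143 ± 47.0 against 177 ± 79.7 CPM (-0.24, SE 0.34), both with an edgeR adjusted p = 0.999.

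By list, 0 members were called in any of the pathway lists. Of 6 tested fibrillar and associated collagens, 2 were above 0 and 4 below, with a median log2 fold change of -0.11, and without Col1a1 and Col1a2, which chose the cells, 2 were above and 2 below, with a median of -0.01. Of 15 basement membrane genes, 5 were above and 10 below, with a median of -0.07. Of the small leucine-rich proteoglycans, all 5 tested were below 0, with a median of -0.20, which includes the rule genes Dcn and Lum, and the other 3 had a median of -0.16. Of matrix processing genes, 9 of 11 were below 0, with a median of -0.21. Genes of CADASIL vessel deposits had 4 of 11 above and a median of -0.15, and without the 3 rule genes 4 of 8 above and a median of 0.08, which turns the direction. For all 1736 genes, 50.2% were above 0.

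On the other side, nuclear genes of oxidative phosphorylation, which serve the respiratory chain, had 20 of 26 above 0 and a median of 0.15. Their summed level averaged 7567 ± 1343 CPM (SD, n = 5) with R182C-TgN3 and 6897 ± 496 CPM (SD, n = 4) with WT-TgN3. Mitochondrially encoded genes of the same complexes summed to 46863 ± 7000 and 43561 ± 1532 CPM. Both differences were within 1 SD of the R182C-TgN3 mice but exceeded 1 SD of the WT-TgN3 mice, and the sums were not tested. Fibroblast activation genes had 5 of 6 above 0 and a median of 0.25, and dissociation stress genes 8 of 18 and a median of -0.03. Markers of other cells varied between the groups. The endothelial list summed to 158 to 477 CPM in R182C-TgN3 and 86.7 to 178 CPM in WT-TgN3 mice, and the pericyte list to 150 to 1541 and 218 to 1067 CPM. Their part in the results was not tested.

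**Figure D4:**
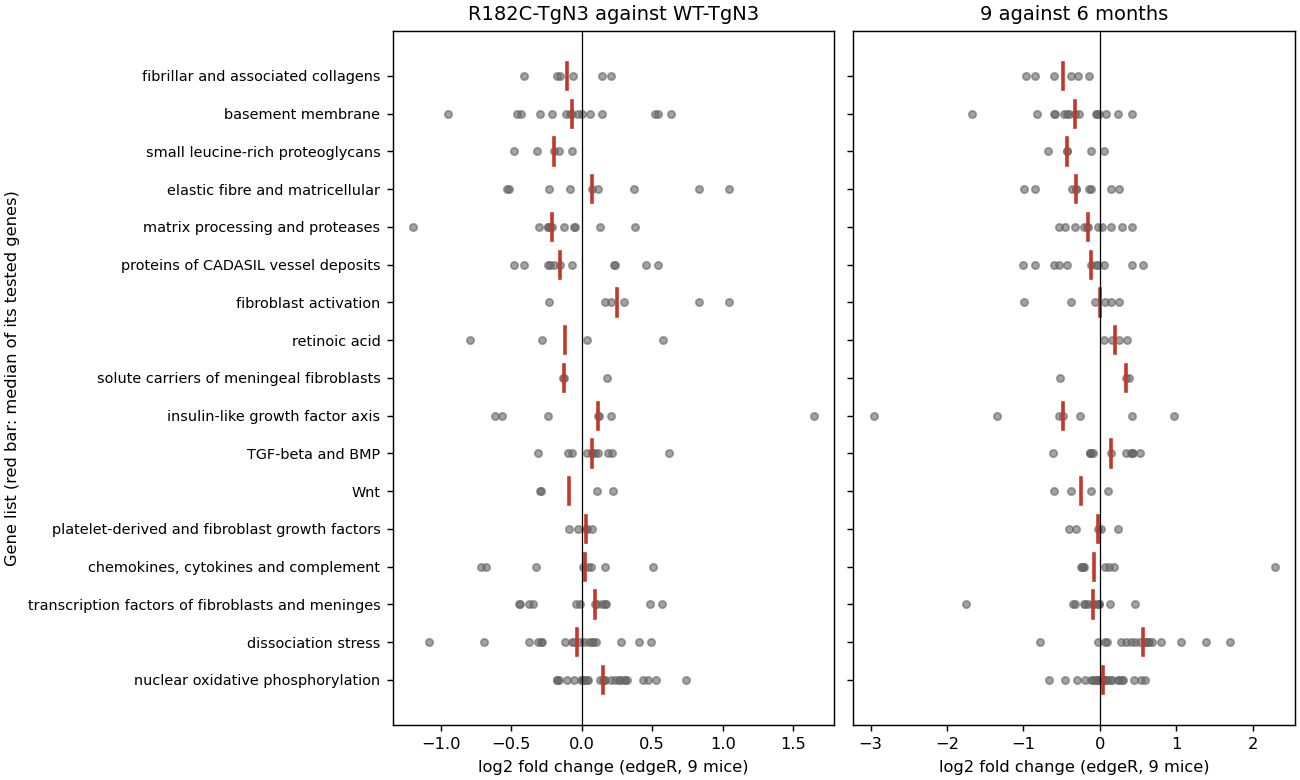
Log2 fold changes (x axis; edgeR, 9 mice) of the tested genes (grey points) of each pathway list with at least 3 of them (y axis), for R182C-TgN3 against WT-TgN3 (left) and 9 against 6 months (right), with red bars for the list medians. No gene passed the adjusted threshold, and 16 of 18 dissociation stress genes lie above 0 for age.

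Within each age no gene passed either. At 6 months, 0 of 2478 genes (0.0%) were called by edgeR and 0 by DESeq2, with 70 (2.82%) and 25 at an unadjusted p under 0.05. Alcam had the smallest p, with a log2 fold change of -2.67 (SE 0.65, edgeR adjusted p = 0.999). At 9 months, 0 of 2478 (0.0%) were called by edgeR and 0 by DESeq2, with 57 (2.3%) and 19 at an unadjusted p under 0.05. Gadd45g, at 44.9 and 60.4 CPM in R182C-TgN3 1 and 2 and at 248 and 642 CPM in WT-TgN3 4 and 5, had -2.92 (SE 0.59, edgeR adjusted p = 0.190). Of the 59 Gadd45g UMIs of WT-TgN3 5, 58 were in cluster 4. Adamts9 had -2.05 (SE 0.54, edgeR adjusted p = 0.998). The difference between the ages was called for 0 of 2478 genes (0.0%) by edgeR and 0 by DESeq2, with 62 (2.5%) and 26 at an unadjusted p under 0.05.

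With the scored doublets removed, 7 mice remained, and 5 genes were called at 6 months and 7 at 9 months. At 9 months they included Rgs5 and Vtn, which are pericyte markers. Without R182C-TgN3 1, 3 genes were called at 9 months, Olfr1033 and Pde4d among them, and without WT-TgN3 4, 2 were called (Gadd45g and Ifit3). Each of these left-out fits compares 1 mouse with 2 at that age.

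Between 9 and 6 months, 0 of 1736 genes (0.0%) were called by edgeR and 0 by DESeq2, with 84 (4.84% by edgeR) and 65 at an unadjusted p under 0.05. Icam1, an adhesion molecule induced by cytokines, had the smallest p. It was at 344, 151, 215 and 120 CPM in the 9-month mice R182C-TgN3 1 and 2 and WT-TgN3 4 and 5. In the 6-month mice R182C-TgN3 4, 5 and 6 and WT-TgN3 1 and 3 it was at 0.0, 88.8, 31.5, 27.3 and 21.8 CPM. The ages did not overlap for Icam1 in these 9 mice, as for 28 genes (1.61%), but R182C-TgN3 3 at 9 months was at 99.0 and WT-TgN3 2 at 6 months at 101 CPM. Its log2 fold change was 2.29 (SE 0.47, edgeR adjusted p = 0.341).

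The following values did not pass either. Pnp, a purine salvage enzyme, had a log2 fold change of 1.47 (SE 0.32, edgeR adjusted p = 0.341) and H2-D1, which presents antigen, 1.02 (SE 0.26, edgeR adjusted p = 0.457). Btg2, an early response gene, was at 738 ± 341 CPM (SD, n = 4) at 9 and 220 ± 123 (SD, n = 5) at 6 months, with 1.71 (SE 0.43). Cebpd had 1.29 (SE 0.35). Lower at 9 months were Fxyd5 with -1.69 (SE 0.43), Foxp2, a transcription factor, with -1.75 (SE 0.53), Arnt2 with -1.16 (SE 0.33), Pawr with -0.93 (SE 0.29) and Ust, a sulfotransferase, with -1.15 (SE 0.38). Igf2 was at 46.5 ± 66.5 CPM at 9 and 511 ± 601 CPM at 6 months.

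**Figure D5:**
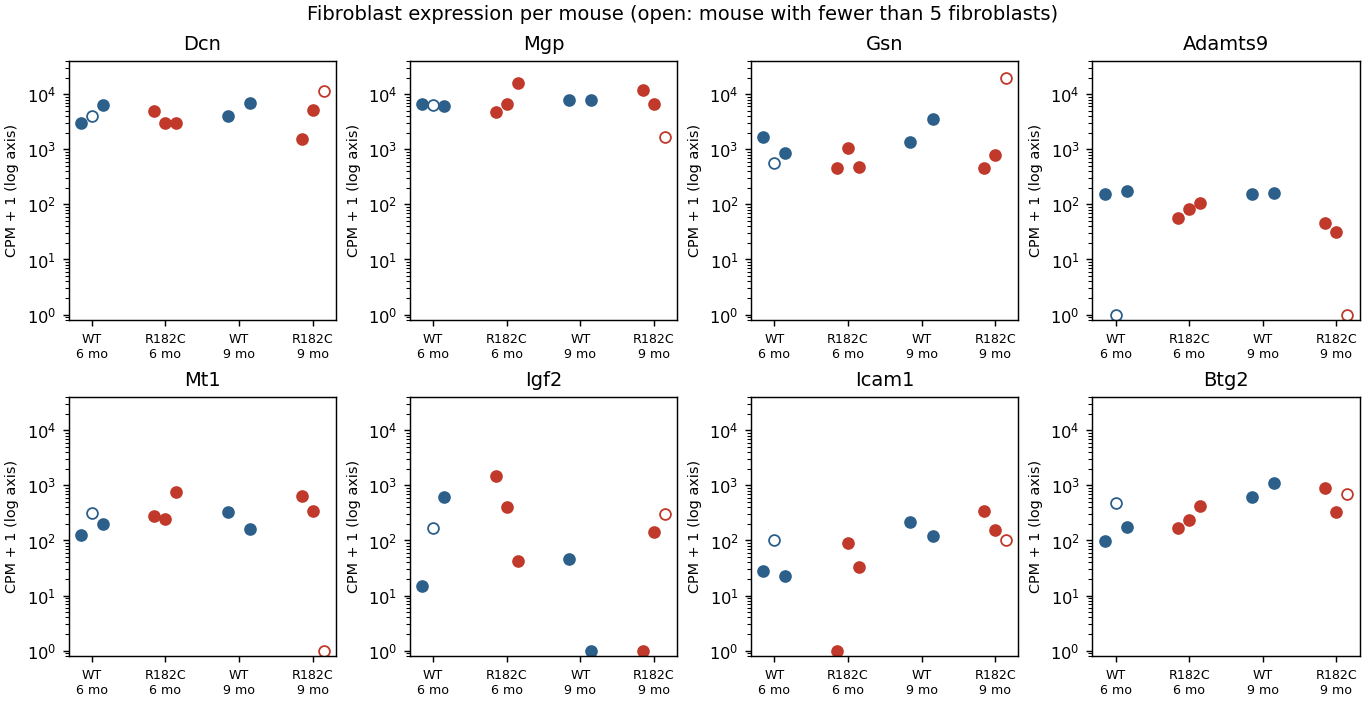
Fibroblast CPM + 1 on a log axis (y axis) of 8 genes in each mouse, by genotype and age (x axis), WT-TgN3 in blue and R182C-TgN3 in red, with open circles for the 2 mice with fewer than 5 fibroblasts. Gsn lies at 449 to 1052 CPM in the 5 filled R182C-TgN3 points, and Icam1 is higher in each filled 9-month point than in each filled 6-month point.

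By list, 16 of 18 dissociation stress genes were above 0 for age, with a median log2 fold change of 0.57, where 49.8% of all genes were above 0 and the overall median was 0.00. Their summed level was 16808 ± 4812 CPM (SD, n = 4) at 9 and 12126 ± 5677 (SD, n = 5) at 6 months. The mice overlapped, since R182C-TgN3 6 at 6 months held 19936 CPM. The clusters were filled differently at the 2 ages. Cluster 1, with high stress genes, held 28 of 43 fibroblasts at 9 and 24 of 52 at 6 months, and cluster 3, with high collagens, held 2 and 6, and the part of this in the list values was not tested. All 6 tested collagens were below 0, with a median of -0.49, and the 4 that are not rule genes had a median of -0.61. Also below 0 were 12 of 15 basement membrane genes, with a median of -0.33, and 11 of 13 transcription factors, with a median of -0.08. All 4 genes of retinoic acid were above 0, with a median of 0.20. No member was called, and age and batch cannot be told apart.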

How the data were processed

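Reads were processed by the authors with Cell Ranger 7.0.0 on mm10 with human NOTCH3 added, and the deposited values are raw UMI counts per gene and barcode. Doublets were kept here unless stated and were scored per library against simulated doublets, marking 0.8% per 1000 barcodes. Counts of fibroblasts were summed per mouse. After genes of ribosomal proteins, the mitochondrial genome and Gm or Rik names had been taken out, filterByExpr and TMM were applied, and genes were tested with the quasi-likelihood test of edgeR 4.0.16 (R 4.3.3) with Benjamini-Hochberg adjustment, with DESeq2 1.42.0 as an alternative. The minimum of 10 fibroblasts left 3 mice, so the fit with a minimum of 5 (9 mice), chosen as a second result after the counts were seen, is given beside it. Fits by age needed the 9 mice. Endothelial, smooth muscle, pericyte and microglia barcodes were chosen by like gates. These allowed no Dcn or Lum UMI in smooth muscle and pericyte barcodes, and almost no Dcn, Col1a1, Col1a2 or Lum UMI in endothelial and microglia barcodes. Fibroblasts were clustered with scanpy 1.11.5 and leidenalg 0.10.2 on 1000 variable genes, 15 components and 15 neighbours at resolution 0.5. Shares were compared by exact permutation over mice. The members and lists were chosen with earlier results of these data known. Genes named were those of the rule, NOTCH3, Notch3, Htra1 and Timp3, the 25 leading genes, the 5 largest called changes per direction filled with those of smallest p, and the highest, called or decisive members of each list. Other genes were named after their values were seen. Positions are from GENCODE vM21 and promoters from RefSeq. Libraries held 17550806 to 64215050 UMIs, and 772 to 39951 UMIs per fibroblast, so genes of few copies are missed. The fit was tested on simulated data with the same dispersion for every gene. Some genes that the rule names are not reported here.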

Additional observations from a re-analysis of the deposited data

Results flagged for a closer look

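In 36 groups of 4 to 6 mice (2 measures per mouse and the levels of 16 genes, each by genotype), 3 had a mouse far from the others. Chance alone marks about 1 in 20 groups when they are unselected and independent. These groups share mice, and Ralgapa1 and Alcam had been named for their small p by genotype, so that rate does not apply here. Col1a1 was highest in R182C-TgN3 4 at 898 CPM, against 312 to 473 CPM in the other 4 R182C-TgN3 mice with at least 5 fibroblasts. Ralgapa1 was highest in the same mouse at 281 CPM, against 90.6 to 123 CPM. Alcam was highest in WT-TgN3 3 at 1851 CPM, against 200 to 451 CPM in the other 3 WT-TgN3 mice.

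Outside the data used, 10 of 5033 barcodes that failed the quality limits met the fibroblast criteria. Of these, 9 exceeded 10% mitochondrial UMIs and 1 held too few genes, and 5 of the 10 were from R182C-TgN3 2.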

How the results depend on the processing

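The minimum of 10 fibroblasts left 1 mouse against 2, so leaving out a mouse, blocks and covariates were not run for that fit or for its UMIs per cell, the comparisons by age or within an age could not be fitted with it, and a minimum of 20 left no mouse. For the share by genotype, always far from the threshold, the difference turned to 0.00873 percentage points with 20% mitochondrial UMIs, 0.00942 after thinning, 0.0119 without scored doublets, 0.0246 within batches, and 0.0246 with mice of the same age and number paired as a replicate block (exact sign-flip p = 0.688, 5 pairs). Leaving out each mouse gave -0.0702 to 0.0517 for genotype and -0.0936 to 0.0300 for age. Deviations of paired mice correlated across genes with r from -0.109 to 0.163, so the numbers were not taken to pair them, and the block called 0 genes in each of the 5 fits with 9 mice. In 3 mice, the 3 calls became 0 with DESeq2, 8 without a filter on low counts, 0 with 9 mice, 0 without the barcodes of clusters 3 and 4 and 5 without scored doublets. In 9 mice, the 0 calls became 15 (genotype), 30 (age), 6 (6 months), 17 (9 months) and 16 (interaction) without that filter. More genes are tested then, down to those of very few UMIs, so these counts have another base than 1736 or 2478 genes. Leaving out the shared barcodes, or those clusters, gave 0 calls in the 5 fits. Removing scored doublets gave 3 for age, 5 at 6 months and 7 at 9 months. Leaving out each mouse gave 0 to 3 calls at 9 months and 0 in the other 4 fits. Of 471 values of single genes under alternatives, 2 turned direction, Gsn to 1.13 with all 11 mice and Pde1c to -0.88 between the fits of 3 and 9 mice. The cause was not tested. Leaving out shared barcodes or small clusters was chosen after seeing the data. With few barcodes per mouse, changes of 2-fold are often missed, and larger ones can be missed in genes that vary more between mice than the simulated ones.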
